A study of Mus musculus with 6 samples.

Results

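The transcripts described here are 10 genes by which conventional dendritic cells (cDCs) and their subsets are recognised, measured in bulk CT26 tumors of mice given the kinase inhibitor H89 or NaCl. They were chosen by name: Flt3 and Zbtb46 for cDCs in general, Clec9a, Batf3, Wdfy4 and Irf8 for the cDC1 subset, Cd209a, Clec10a and Irf4 for the cDC2 subset, and Fscn1 for mature dendritic cells. All 10 were among the 23557 genes of the table, and 8 of them reached the mean of 0.5 counts per 1000000 (CPM) needed to be tested, as 13118 genes did. Flt3 and Cd209a, with means of 0.417 and 0.489 CPM over the 6 tumors, did not.

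CT26 is a colon carcinoma line of BALB/c origin. Female BALB/c mice, 7 weeks old when obtained, received 500000 CT26 cells under the skin. From day 6, 1 group was injected intraperitoneally with H89 at 10 mg/kg in NaCl 2 times a week, and the control group received NaCl. Tumors of 3 mice per group were frozen on day 14 and their total RNA was sequenced on a BGISEQ-500 instrument. H89 inhibits protein kinase A and several other kinases, so the comparison is between an inhibitor of mixed targets and its vehicle.

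cDCs take up material from dying cells and present its peptides to T cells. cDC1s, which depend on Irf8 and Batf3, are specialised in cross-presentation of cell-associated antigen to CD8+ T cells, and cDC2s, many of which depend on Irf4, favour CD4+ T cells. On maturation, dendritic cells bundle actin with fascin, the product of Fscn1, gain the chemokine receptor Ccr7 and leave for the lymph node. Several of the 10 genes are not private to dendritic cells: Zbtb46 is also transcribed in endothelium, Irf8 in plasmacytoid dendritic cells, B cells and monocytes, Wdfy4 in B cells, Irf4 in lymphocytes and plasma cells, Clec10a in macrophages and Fscn1 in many tumor and stromal cells.

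RefSeq start sites on GRCm38.p6 were matched by symbol for 9 of the 10 genes, not for Clec10a. The 250 bases before the start are shown for 1 lectin receptor of each subset and for the cDC1 factor Irf8, whose starts differ in base composition.
Clec9a, chr6:129408612-129408861, plus strand: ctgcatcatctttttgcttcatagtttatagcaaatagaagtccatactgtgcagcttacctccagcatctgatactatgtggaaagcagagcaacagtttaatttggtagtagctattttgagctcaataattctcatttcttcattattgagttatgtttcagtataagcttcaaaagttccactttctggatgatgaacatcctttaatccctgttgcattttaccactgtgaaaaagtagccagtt
Cd209a, chr8:3748985-3749234, minus strand: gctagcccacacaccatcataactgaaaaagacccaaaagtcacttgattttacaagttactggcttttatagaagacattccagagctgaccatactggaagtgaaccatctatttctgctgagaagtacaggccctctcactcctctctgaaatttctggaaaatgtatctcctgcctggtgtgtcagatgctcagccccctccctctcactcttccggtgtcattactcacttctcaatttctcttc
Irf8, chr8:120736108-120736357, plus strand: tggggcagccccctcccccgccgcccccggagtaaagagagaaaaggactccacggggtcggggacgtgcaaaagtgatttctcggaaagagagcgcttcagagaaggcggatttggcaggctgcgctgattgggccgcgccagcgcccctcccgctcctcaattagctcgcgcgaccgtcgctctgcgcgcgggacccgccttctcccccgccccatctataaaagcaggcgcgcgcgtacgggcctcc
The GC content of these windows was 35.6% for Clec9a, 44.8% for Cd209a and 67.2% for Irf8. The window before a second RefSeq start of Irf8 had 54.0%, and those of the other genes 51.6% to 76.0%. Of the patterns searched on both strands, the AP-1 pattern TGANTCA, found in 7.82% of the 27025 genes with such a window, was in that of Zbtb46 alone among the 9 genes, from 61 bases before the start. It is shown in capitals with 10 bases on either side. The RefSeq starts of Zbtb46, Batf3 and Wdfy4, and the second start of Irf8, lie well inside the gene as GENCODE M21 gives it. Those of Irf4 and Fscn1 lie a few bases inside. The windows before all these starts may be transcribed and are not necessarily promoters.
Zbtb46, chr2:181424433-181424459, minus strand: ccatttacctTGACTCAtttcacagca
The interferon-stimulated response element (GAAA followed after any 2 bases by GAAA, 3.46% of genes), the composite of an ETS and an IRF half-site (GGAA followed after any 2 bases by GAAA, 2.68%) and the PU.1-type site GAGGAAGT (2.79%) were in none of the 9 genes' windows. A match of letters does not show that a factor binds there.

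Totals ran from 27067349 to 31958793 estimated counts per tumor, so that 1 count was worth 0.0313 to 0.0369 CPM. A total of 208 genes passed the edgeR quasi-likelihood test over all 13118 genes at a Benjamini-Hochberg adjusted p under 0.05. The 12 keratinocyte genes, of which 3 were tested, summed to 45.1 to 72.9 CPM in NaCl and 16.1 to 19.2 CPM in H89 tumors. Most of that sum was Cdsn, which was lower in H89 tumors (log2 fold change -2.15, adjusted p = 0.0288 by edgeR). Krt1, Ivl and Krt15 were at 0 in all tumors, Krt5 was at 0 in all NaCl tumors and at most 0.105 CPM in the others, and Krt14 was at most 0.172 CPM. The part of skin in the levels below was not tested. The Langerhans cell lectin Cd207 was at 0 in the NaCl tumors and at most 0.0701 CPM in H89 tumors. Epcam, an epithelial marker, was at most 0.0369 CPM in the NaCl tumors and 1.16 CPM in 1 H89 tumor, while the 8 genes listed for CT26 cells summed to 599 to 799 CPM.

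Of the 10 genes, 9 had a higher mean in H89 than in NaCl tumors and Fscn1 had a lower one, but none of the 8 tested passed the adjusted test, which 1.59% of all tested genes did. At an unadjusted p under 0.05, Zbtb46, Clec9a, Batf3 and Irf4 were higher, against 13.1% of all tested genes, and Fscn1 was lower, against 11.9%. The median log2 fold change of the 8 tested genes was 0.43, and that of all tested genes 0.004. All 3 H89 values lay above all 3 NaCl values for 4 of the 8 tested genes, as they did for 20.5% of all tested genes, and below them for 1 of 8, as for 10.0%. With the untested Flt3 and Cd209a the count was 6 above and 1 below of 10. The totals matter to those shares over all genes: of the genes whose groups did not overlap, 67.2% lay above in CPM of the column totals and 49.6% after TMM scaling, the median of all genes shifting by 0.07 in log2. The 7 non-overlapping genes were the same ones under either scaling.

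**Figure D1:**
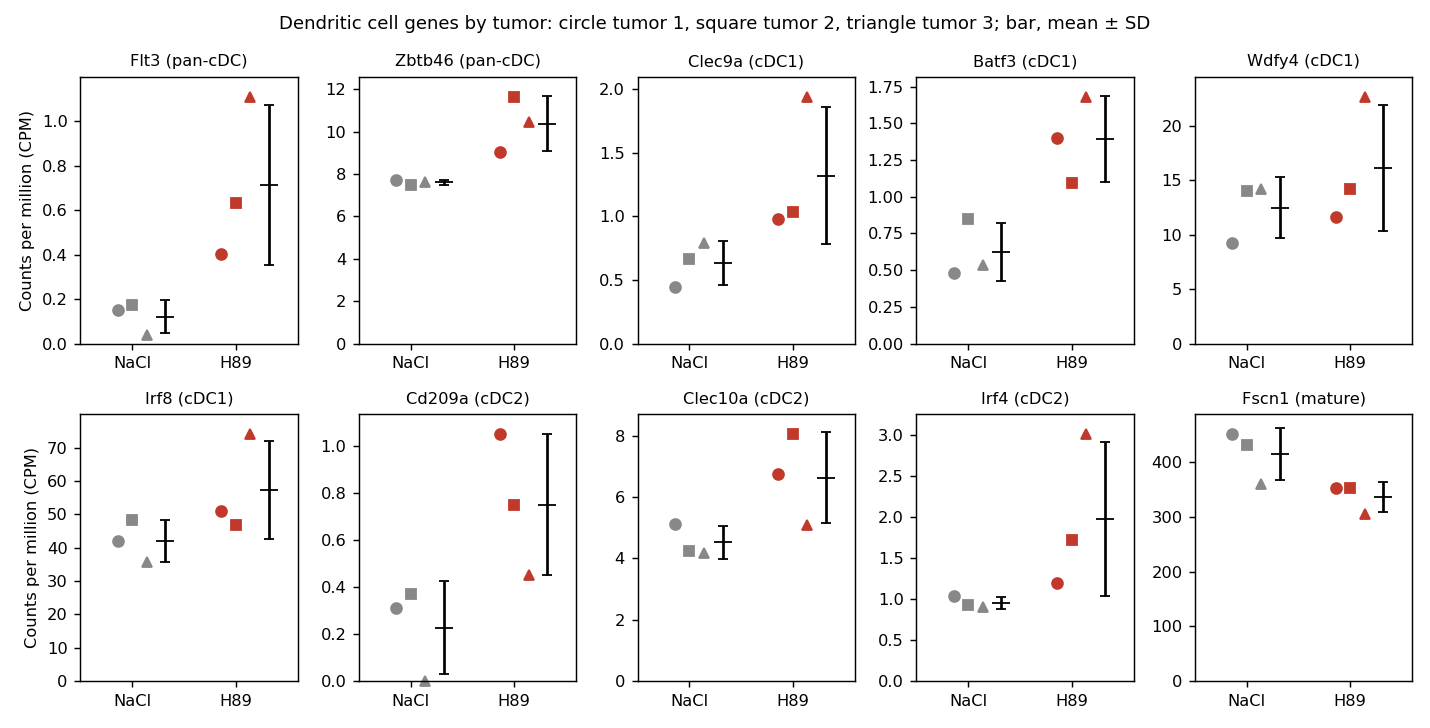
Level of each of the 10 genes in CPM (vertical axes from 0) in the 3 NaCl tumors (grey) and the 3 H89 tumors (red), with the mean and SD of each group as a bar. Wdfy4, Irf8 and Clec10a overlap between groups, Fscn1 lies lower in H89 tumors, and H89 tumor 3 is the highest of the 6 for Flt3, Clec9a, Batf3, Wdfy4, Irf8 and Irf4.

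Flt3 encodes the receptor tyrosine kinase whose ligand drives dendritic cell development. Its level was 0.152, 0.173 and 0.0383 CPM in NaCl tumors 1 to 3 and 0.402, 0.631 and 1.11 CPM in H89 tumors 1 to 3. The groups did not overlap, but these values stand for 4.41, 4.69 and 1.07 estimated counts against 11.5, 20.2 and 34.3. The 95% Poisson intervals, which cover counting error only, reached 0.431 CPM in NaCl tumor 2 and began at 0.192 CPM in H89 tumor 1, so the nearest tumors of the groups were not distinguishable at this depth. The mean was 0.714 ± 0.361 CPM (SD, n = 3) in H89 and 0.121 ± 0.0726 CPM in NaCl tumors, a ratio of 5.89, with an exact two-sided permutation p of 0.1, the smallest that 3 against 3 tumors allow. Without the filter on low counts, edgeR gave a log2 fold change of 2.43 (SE 0.59) and an adjusted p of 0.0713.

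Zbtb46 encodes a zinc-finger repressor that marks committed cDCs. The NaCl tumors were close together, at 7.74, 7.46 and 7.60 CPM. The H89 tumors were at 9.04, 11.6 and 10.4 CPM, all higher than any NaCl tumor. Its log2 fold change was 0.38 (SE 0.14), with an unadjusted edgeR p of 0.0247 and an adjusted p of 0.147. The summed level of 10 endothelial genes was 134 to 210 CPM in NaCl and 127 to 175 CPM in H89 tumors. At an unadjusted p under 0.05, none was higher and 2 of 10 were lower, beside 13.1% and 11.9% of all tested genes. The log2 fold change was above 0 for 4 of the 10. The part of endothelium in the level of Zbtb46 was not tested. In bulk tumors, more cells of a type and more RNA per cell cannot be told apart, for this gene and for all those that follow.

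Among the cDC1 genes, Clec9a and Batf3 separated the groups and Wdfy4 and Irf8 did not. Clec9a, the receptor by which cDC1s recognise actin filaments exposed on dead cells, was measured at 0.447, 0.665 and 0.789 CPM in NaCl and 0.981, 1.03 and 1.94 CPM in H89 tumors. Every H89 tumor was above every NaCl tumor, with H89 tumor 3 well above the rest. For Clec9a the log2 fold change was 0.98 (SE 0.36, adjusted p = 0.151 by edgeR), and 0.62 when H89 tumor 3 was left out. Exons of Clec9a overlap those of Clec1b on the same strand, so reads of the 2 genes may be shared.

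Batf3, the AP-1 family factor without which cDC1s do not develop, was at 0.482, 0.850 and 0.538 CPM in NaCl tumors and at 1.40, 1.10 and 1.68 CPM in H89 tumors. The H89 tumors were higher than all NaCl tumors. Its log2 fold change of 1.09 (SE 0.31) was the largest of the 8 tested genes, with an unadjusted p of 0.0085 and an adjusted p of 0.0977 in edgeR. The counts behind it were few, 14 to 23 in NaCl and 35 to 52 in H89 tumors.

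Wdfy4, a BEACH-domain protein needed for cross-presentation by cDC1s, was at 9.29, 14.0 and 14.2 CPM in NaCl and 11.6, 14.2 and 22.7 CPM in H89 tumors. H89 tumor 1 lay below 2 NaCl tumors and H89 tumor 3 above all others. For Wdfy4 the log2 fold change was 0.29 (SE 0.25, edgeR adjusted p = 0.492) with all tumors and 0.00 without H89 tumor 3.

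Irf8, the interferon regulatory factor that fixes cDC1 identity, was at 41.9, 48.3 and 35.5 CPM in NaCl and 51.0, 46.7 and 74.0 CPM in H89 tumors. H89 tumor 2 fell inside the NaCl range. The log2 fold change was 0.38 (SE 0.17, edgeR adjusted p = 0.225) and 0.18 without H89 tumor 3. The 15 interferon-inducible genes listed beside it summed to 548 to 1241 CPM in NaCl and 1192 to 2523 CPM in H89 tumors, 8 of 15 higher at an unadjusted p under 0.05. On that sum, as for Irf8, H89 tumor 2 was the lowest and H89 tumor 3 the highest H89 tumor. NaCl tumor 3 was the lowest of all tumors on both. The highest NaCl tumor was tumor 1 on the sum and tumor 2 for Irf8. Among H89 tumors, the T cell, NK cell and leukocyte sums also had tumor 2 lowest and tumor 3 highest. NaCl tumor 3 was the lowest of all tumors on these sums too, so the order is not particular to the interferon-inducible genes. Of 10 tested plasmacytoid genes, 5 were higher and 1 lower at that threshold, with overlapping sums of 383 to 473 CPM in NaCl and 425 to 610 CPM in H89 tumors, and the adjusted test called none higher and 1 lower. Monocyte genes, 1 of 9 higher, summed to 2101 to 3615 CPM and 2250.1 to 3556 CPM, and B cell genes, 1 of 5 higher, to 10.5 to 15.2 CPM and 15.3 to 20.2 CPM. The part of interferon or of these cells in the level of Irf8 was not tested.

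Among the cDC2 genes, Irf4 and Cd209a separated the groups, Cd209a at very low counts, and Clec10a did not. Cd209a, a mouse homologue of the lectin DC-SIGN, was at 0.310, 0.369 and 0 CPM in NaCl and 1.05, 0.751 and 0.452 CPM in H89 tumors. The H89 tumors were all higher, but the counts were 9, 10 and 0 against 30, 24 and 14, and a count of 0 in NaCl tumor 3 allows up to 0.108 CPM by the limit of 3 counts, or 0.132 CPM by the two-sided 95% Poisson bound. That Poisson bound for NaCl tumor 2, 0.679 CPM, exceeded the value of H89 tumor 3. The mean was 0.751 ± 0.299 CPM (SD, n = 3) against 0.226 ± 0.198 CPM, with an exact two-sided permutation p of 0.1. Without the filter, edgeR gave a log2 fold change of 1.64 (SE 0.72, adjusted p = 0.243).

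Clec10a, a lectin that binds galactose-type sugars, was at 5.13, 4.25 and 4.19 CPM in NaCl and 6.75, 8.05 and 5.09 CPM in H89 tumors. H89 tumor 3, the tumor highest for all 4 cDC1 genes, was the lowest H89 tumor here and fell just under NaCl tumor 1. For Clec10a the log2 fold change was 0.48 (SE 0.22, edgeR adjusted p = 0.214). The estimated counts of Clec10a, like those of Flt3, were not whole numbers, which happens where reads are divided between similar transcripts. Mgl2 is a close paralog of Clec10a. Summed with Mgl2, the level was 13.3 ± 3.75 CPM (SD, n = 3) in NaCl and 19.98 ± 9.73 CPM in H89 tumors, and the groups overlapped. The 12 macrophage genes summed to 1451 to 2661 CPM in NaCl and 2075 to 2604 CPM in H89 tumors, with 2 higher and none lower at an unadjusted p under 0.05.

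Irf4, the interferon regulatory factor that supports cDC2s and also acts in activated lymphocytes, had a narrow NaCl range of 1.03, 0.924 and 0.897 CPM. The H89 tumors were at 1.19, 1.72 and 3.01 CPM, all higher, and spread over more than the whole NaCl level. The log2 fold change was 0.97 (SE 0.35, adjusted p = 0.144 by edgeR), falling to 0.56 without H89 tumor 3. T cell genes ran in the same direction, with 6 of 11 higher at an unadjusted p under 0.05 and a sum of 41.2 to 83.0 CPM in NaCl and 71.5 to 138 CPM in H89 tumors. Plasma cell genes summed to 61.0 to 79.2 CPM in NaCl and 44.5 to 68.2 CPM in H89 tumors. The part of either cell type in the level of Irf4 was not tested.

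Fscn1, the only mature dendritic cell gene of the 10, ran the other way. It was at 451, 431 and 361 CPM in NaCl and 353, 353 and 305 CPM in H89 tumors. Every H89 tumor was lower than every NaCl tumor, by a narrow margin for NaCl tumor 3. The log2 fold change was -0.37 (SE 0.13), with an unadjusted p of 0.0199 and an adjusted p of 0.133 by edgeR. The DESeq2 Wald test on the same genes gave -0.37 with an adjusted p of 0.0492, a test that called 10.9% of the genes it adjusted. Ccr7, the homing receptor that matures together with fascin in dendritic cells, was at 3.54, 1.33 and 1.04 CPM in NaCl and 2.73, 3.29 and 2.36 CPM in H89 tumors, with a log2 fold change of 0.42 (SE 0.45, adjusted p = 0.595). The 8 CT26 genes summed to 699 to 799 CPM in NaCl and 599 to 751 CPM in H89 tumors, with 1 of 5 tested lower at an unadjusted p under 0.05. For 10 fibroblast genes the sums were 2555 to 2724 CPM and 3112 to 3649 CPM, with 5 higher and none lower. How much of the Fscn1 transcript came from tumor cells, stroma or dendritic cells was not tested.

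Per kilobase of the longest coding transcript, the scale on which levels of different genes can be set side by side, Fscn1 was far above the other 9 genes, at a median of 133 CPM per kilobase over the 6 tumors. Irf8 followed at 16.7 CPM per kilobase, and then Clec10a, Zbtb46, Wdfy4, Batf3, Cd209a, Clec9a, Irf4 and Flt3. The range of Fscn1 did not overlap that of Irf8, nor that of Irf8 the range of Clec10a. From Clec10a down, each gene's range over the 6 tumors, both groups together, overlapped that of its neighbour in the order. Within single tumors, Clec10a was above Zbtb46, Batf3 above Cd209a and Irf4 above Flt3 in all 6. The other neighbours from Clec10a down changed order in at least 1 tumor. Genes further apart did not overlap: the ranges of Clec10a, Zbtb46 and Wdfy4 lay wholly above those of Cd209a, Clec9a, Irf4 and Flt3. Ccr7 was at a median of 1.29 CPM per kilobase, so fascin and Ccr7, which mark the same mature cells, stood far apart in level.

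**Figure D2:**
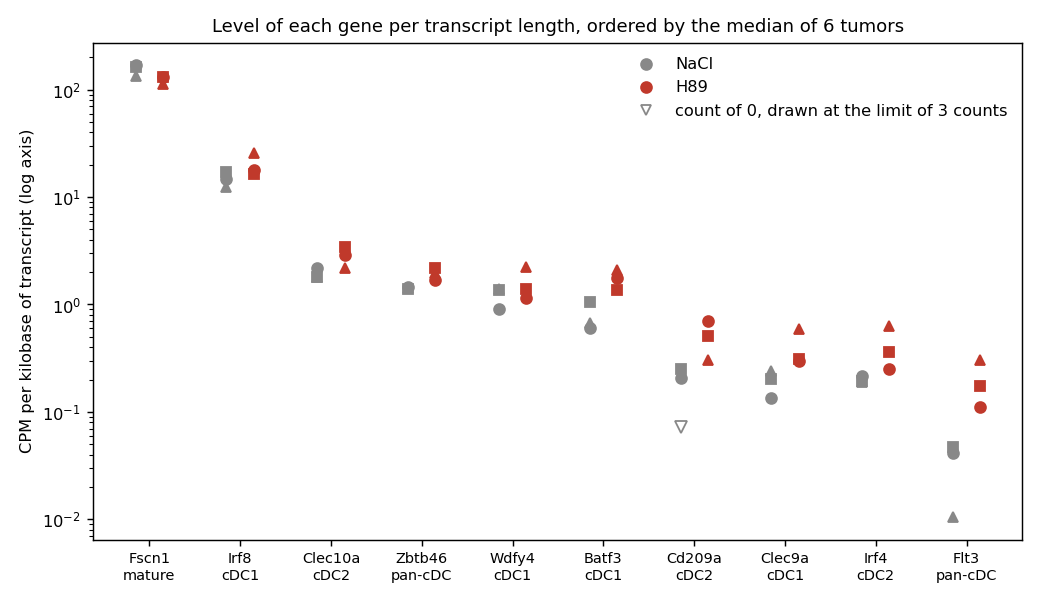
CPM per kilobase of transcript (log axis) for each gene in the 3 NaCl tumors (grey) and 3 H89 tumors (red), ordered from left by the median of the 6 tumors. Fscn1 and Irf8 stand above the other genes, whose neighbouring ranges overlap, and the open triangle marks the Cd209a count of 0 at the limit of 3 counts.

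One tumor set the size of several of these differences. Leaving out each tumor in turn, the log2 fold changes of the 8 tested genes kept their sign in all 6 fits. Without H89 tumor 3, Clec9a, Irf4, Irf8 and Wdfy4 took the lowest of their 6 values, 0.62, 0.56, 0.18 and 0.00. Batf3 varied between 0.94 and 1.36 and Zbtb46 between 0.29 and 0.44. Clec10a was at its highest, 0.66, without that tumor, and at its lowest, 0.33, without H89 tumor 2. Fscn1 varied between -0.46 and -0.28.

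**Figure D3:**
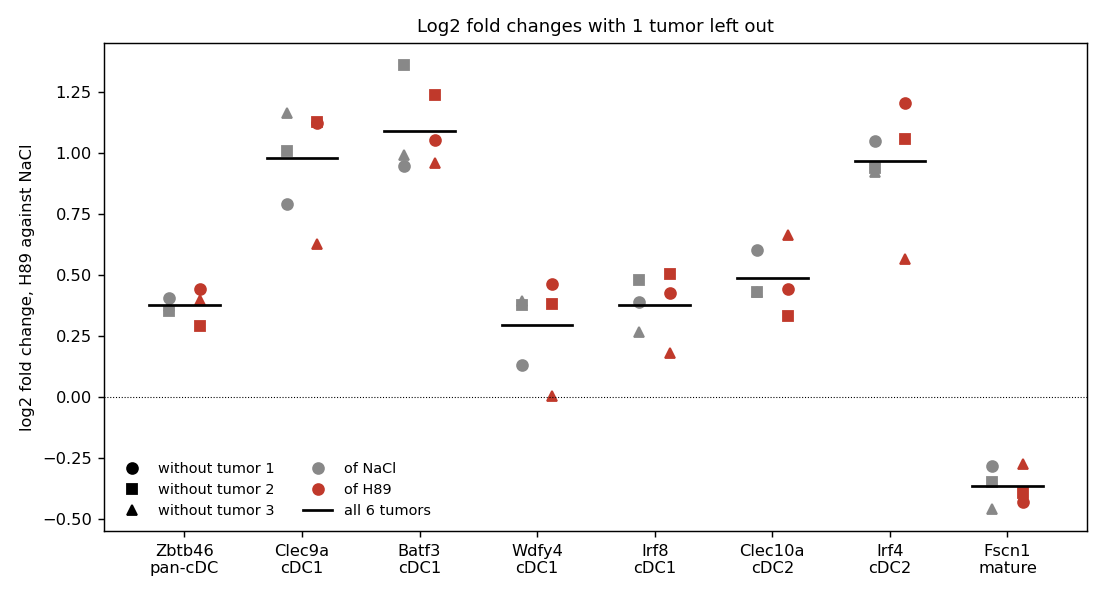
Log2 fold change of H89 against NaCl for each tested gene with all 6 tumors (black line) and with 1 tumor left out (grey symbols, an NaCl tumor left out, red symbols, an H89 tumor left out, shape by tumor number). Clec9a, Wdfy4, Irf8 and Irf4 are lowest without H89 tumor 3, where Wdfy4 reaches 0.00.

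The 10 genes were then set against the leukocyte transcripts of the same tumor. Ptprc, which encodes the pan-leukocyte phosphatase CD45, was at 24.1, 31.2 and 29.3 CPM in NaCl and 47.3, 48.6 and 83.7 CPM in H89 tumors, with a log2 fold change of 1.01 (SE 0.21, adjusted p = 0.0547 by edgeR). The 8 leukocyte genes together summed to 418 to 513 CPM and 476 to 714 CPM, with 4 higher and none lower at an unadjusted p under 0.05. Relative to Ptprc within each tumor, on the log2(CPM + 0.5) scale, all 10 differences between H89 and NaCl were below 0. The added 0.5 shrinks the differences of the scarcest genes and can change their sign. Without it, the log2 ratio of means was 2.56 for Flt3 and 1.73 for Cd209a, and the edgeR log2 fold change of Batf3 was 1.09. These values are above the 1.01 of Ptprc, so the signs below 0 of these genes depend on the pseudocount. On the log2(CPM + 0.5) scale, the differences were -0.61 for Zbtb46, -0.38 for Clec9a, -0.70 for Wdfy4, -0.60 for Irf8 and -1.32 for Fscn1. For these genes the groups did not overlap (exact two-sided permutation p = 0.1 each). Ptprc itself separated the groups, while the median log2 fold change of all tested genes was 0.004. A gene unchanged in CPM would thus also lie below 0 on this scale. The share of all genes that separated relative to Ptprc was not computed. These separations are therefore not read as particular to the genes named. Clec9a, at 0.447 to 1.94 CPM, is close to the added 0.5. Its edgeR log2 fold change of 0.98 was near the 1.01 of Ptprc, so its separation here is not read as a fall per leukocyte transcript. For Flt3, Batf3, Cd209a, Clec10a and Irf4 the differences ranged from -0.54 to -0.10, with overlap. The edgeR log2 fold change of Irf4, 0.97, was also near the 1.01 of Ptprc, so its sign here is not read as a direction.

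On the same scale, with the pseudocount, the sign differed between the leukocyte references for 5 genes. Relative to the mean of the 8 leukocyte genes, among which Laptm5 and Cd53 had log2 fold changes of -0.03 and 0.05, the difference was 0.42 for Flt3, 0.15 for Clec9a, 0.25 for Batf3, 0.29 for Cd209a and 0.20 for Irf4. Of these, Flt3 alone separated the groups (exact permutation p = 0.1). Zbtb46, Wdfy4, Irf8 and Clec10a were between -0.18 and -0.02 with overlap. Fscn1 remained below, at -0.80, without overlap. Fscn1 was lower on each of these scales. It was already lower in CPM, and both leukocyte references were higher on average in H89 tumors. Its lower values relative to them follow from that and add no support. No direction relative to leukocytes held on both references for Clec9a or Irf4. For Flt3, Batf3 and Cd209a the sign relative to Ptprc depended on the pseudocount. The change of sign of these genes is therefore not put down to the reference.

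**Figure D4:**
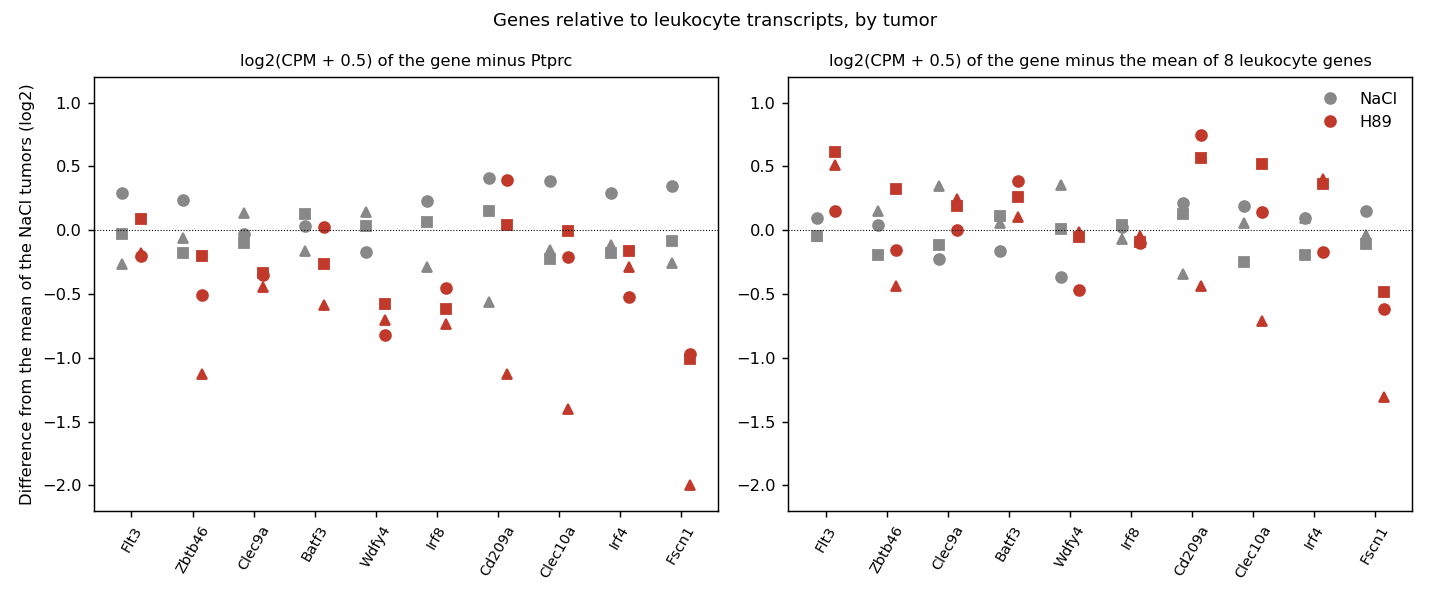
For each gene and tumor, log2(CPM + 0.5) minus that of Ptprc (left) or minus the mean of 8 leukocyte genes (right), drawn as the difference from the mean of the NaCl tumors (grey, NaCl; red, H89; shape by tumor number). Against Ptprc the H89 means are below 0 for all 10 genes, and against the 8 genes those of Flt3, Clec9a, Batf3, Cd209a and Irf4 are above 0, while Fscn1 is below in both.

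A further 80 genes of dendritic cell biology were listed in 5 groups, of which 72 were tested. Itgae and Csf2ra passed the adjusted test, both higher in H89 tumors (0.861% of all tested genes were called in that direction). At an unadjusted p under 0.05, 24 of the 72 were higher and 5 lower, and their median log2 fold change was 0.37. Of all tested genes, 13.1% were higher and 11.9% lower at that threshold, the shares beside which the counts of each list below stand.

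Itgae encodes the alpha E integrin CD103 of tissue cDC1s and of resident CD8+ T cells. It was at 1.07, 1.18 and 1.11 CPM in NaCl and 2.35, 2.75 and 2.94 CPM in H89 tumors, groups that were tight and far apart. It rose by a log2 fold change of 1.18 (SE 0.21, adjusted p = 0.0443 by edgeR), and the value stayed between 1.14 and 1.24 with any 1 tumor left out. The adjusted p was then 0.067 to 0.147, so the call was lost in each of these smaller sets. Of the other 13 tested cDC1 genes, none was lower and 6 were higher at an unadjusted p under 0.05, and the median of the 14 was 0.79.

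Xcr1, the chemokine receptor most private to cDC1s, was at 0.391, 0.343 and 0.225 CPM in NaCl and 1.28, 0.530 and 2.32 CPM in H89 tumors. All H89 tumors were higher, unevenly so. The log2 fold change was 2.07 (SE 0.56, adjusted p = 0.0869 by edgeR). Its ligand Xcl1, made by NK and CD8+ T cells, had a log2 fold change of 1.03 (SE 0.35, adjusted p = 0.133), and 4 of 7 tested NK cell genes were higher at an unadjusted p under 0.05. Tlr3, the endosomal receptor for double-stranded RNA that is abundant in cDC1s, was at 0.83 (SE 0.18, adjusted p = 0.062) and the interferon-inducible Ifi205 at 0.88 (SE 0.24, adjusted p = 0.0876).

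The 12 tested cDC2 genes went in both directions, 3 higher and 3 lower at an unadjusted p under 0.05, with a median of 0.62 and none passing the adjusted test. Cd7, better known from T and NK cells, had a log2 fold change of 1.81 (SE 0.39, adjusted p = 0.0627 by edgeR), and the inhibitory lectin Clec12a one of 1.46 (SE 0.38, adjusted p = 0.0827). The transcription factors Klf4 and Relb were at -0.34 (SE 0.09, adjusted p = 0.0903) and -0.35 (SE 0.12, adjusted p = 0.135). Sirpa, the surface receptor by which cDC2s are sorted and which macrophages also carry, was at 103 to 114 CPM in NaCl and 108 to 144 CPM in H89 tumors, with a log2 fold change of 0.13 (SE 0.10, adjusted p = 0.430).

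Mature dendritic cell genes other than Fscn1 had a median log2 fold change of 0.32 over 19 tested. At an unadjusted p under 0.05, 3 were higher and 1 lower, beside 13.1% and 11.9% of all tested genes, and none passed the adjusted test. The 4 with the smallest p by edgeR were Tmem123 at 0.34 (adjusted p = 0.112), Marcksl1 at -0.30 (adjusted p = 0.129), Cd274, which encodes PD-L1, at 1.03 (adjusted p = 0.175) and Tnfrsf4, which encodes OX40, a receptor of activated T cells, at 0.89 (adjusted p = 0.189). None of the 19 had all H89 values below all NaCl values, as Fscn1 and 10.0% of all tested genes did. The difference between Fscn1 and the list was not tested.

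General cDC genes showed a median of 0.26 over 15 tested, 6 higher and 1 lower at an unadjusted p under 0.05, none past the adjusted test. Itgax, which encodes CD11c, was at 5.68, 3.92 and 4.09 CPM in NaCl and 5.15, 10.0 and 11.1 CPM in H89 tumors. H89 tumor 1 lay inside the NaCl range, and the log2 fold change was 0.86 (SE 0.29, adjusted p = 0.127 by edgeR). The transcription factors Bcl11a and Ikzf1 were at 1.23 (adjusted p = 0.0721) and 0.70 (adjusted p = 0.0929), the peptidase gene Dpp4 at 1.43 (adjusted p = 0.0861) and H2-DMb2, of class II peptide loading, at 1.41 (adjusted p = 0.101).

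Among growth factors, attractants and their receptors, Csf2ra, the alpha chain of the GM-CSF receptor, was at 23.4, 31.3 and 22.0 CPM in NaCl and at 43.9, 44.4 and 44.3 CPM in H89 tumors. The H89 tumors were nearly equal and all above the NaCl tumors. It rose by 0.72 (SE 0.13, adjusted p = 0.0481 by edgeR) in log2, with an adjusted p of 0.076 to 0.147 when 1 tumor was left out. The ligand Csf2 was at 0.17 (adjusted p = 0.771), and Flt3l, the ligand of Flt3, at -0.16 (SE 0.80, adjusted p = 0.924), its value ranging from 0.0494 to 1.92 CPM within the NaCl group. The chemokine receptor Ccr2, of monocytes as well, was at 0.93 (adjusted p = 0.0662). Ccl19 and Ccl21a, the ligands of Ccr7, were at 0 in all 6 tumors.

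**Figure D5:**
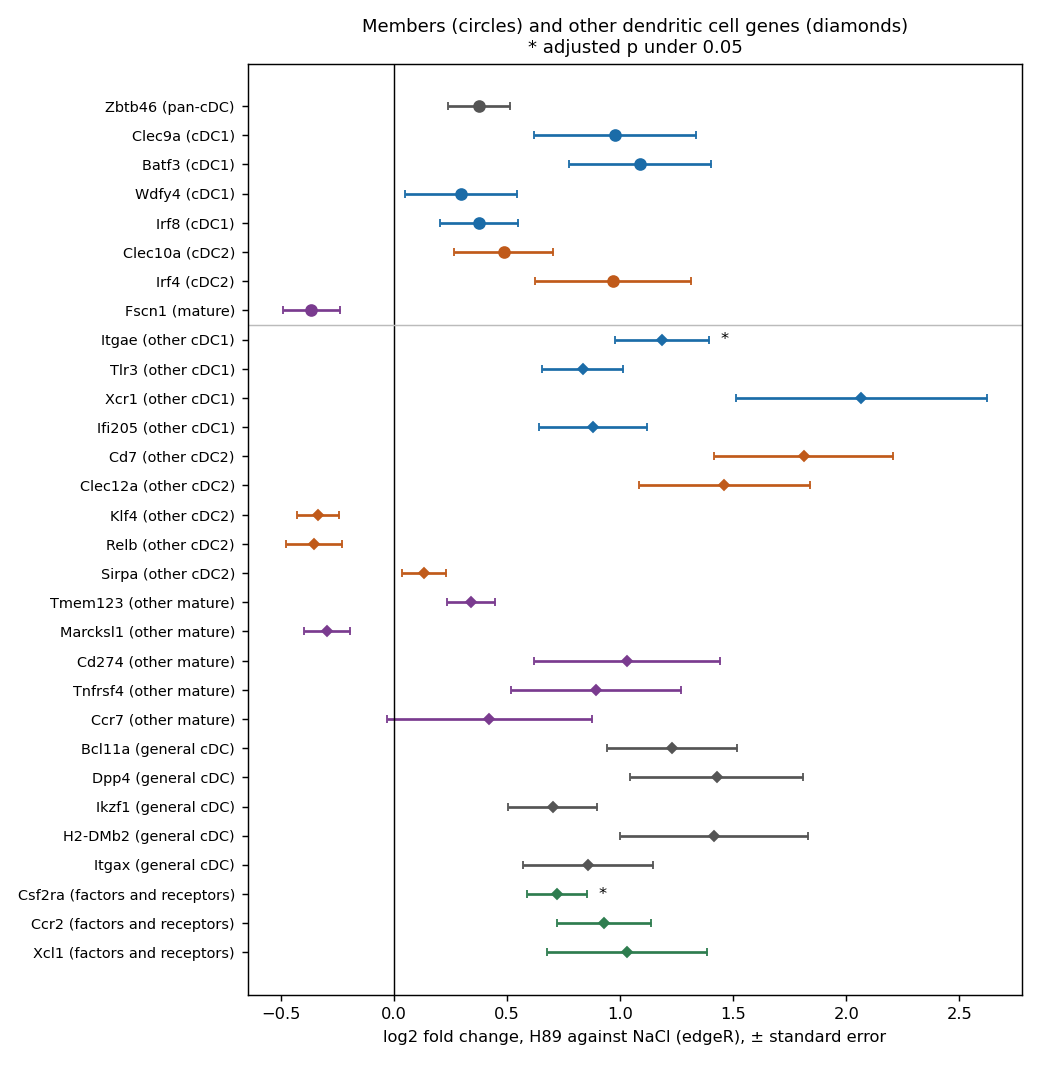
Log2 fold change of H89 against NaCl with its standard error (edgeR, 3 tumors per group) for the 8 tested genes (circles) and for other dendritic cell genes by list (diamonds), the asterisk marking an adjusted p under 0.05. Itgae and Csf2ra carry the asterisk, Xcr1 has the largest value at 2.07 with the widest error bar, and Fscn1, Klf4, Relb and Marcksl1 lie below 0.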

How the data were processed

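Bulk RNA sequencing of 6 CT26 tumors, 3 per group, was used. The authors deposited a table of estimated counts per gene, named as TPM but with totals of 27067349 to 31958793 per tumor, which TPM would not give. The submitters' processing notes name kallisto, DESeq2 and GRCm38, with versions, annotation and filters not given in the sources used here. A record names 229 gene columns one by one, and the other 23328 were read in the same way.

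Groups and replicate numbers came from the sample labels. Counts were rounded and tested with edgeR 4.0.16 (TMM, glmQLFit, glmQLFTest, R 4.3.3) where the mean reached 0.5 CPM (13118 genes), with Benjamini-Hochberg adjustment over all of them. The standard error (SE) was the size of the log2 fold change over the root of its F statistic. Single values were also compared by exact permutation over tumors, whose smallest p is 0.1. CPM used the column totals, and the pseudocount was 0.5 where logarithms were taken of CPM. Intervals are exact Poisson at 95% and cover counting error only, and 3 tumors per group limit the precision further. The fits were tested on simulated data.

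The 10 genes and all lists were chosen with earlier results of these data known. The text names the 10 genes, Xcr1, Itgax, Sirpa, Ccr7, Ptprc, the 4 genes of smallest edgeR p in each of 5 dendritic cell lists, and genes of other cells on which a result turns. Csf2, Flt3l, Ccl19, Ccl21a, Laptm5, Cd53, Cdsn, Krt1, Ivl, Krt15, Krt5, Krt14, Cd207 and Epcam were named after their values were seen. A gene that the rule selects is not reported here. The settings varied were the filter (none, or a mean of 5 CPM or more), median ratio scaling, DESeq2 1.42.0, limma 3.58.1 (quantile normalization, or a pseudocount of 1), a block on the replicate number, and the omission of each tumor. Gene positions and transcript lengths are those of GENCODE M21, promoters those of RefSeq.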

Additional observations from a re-analysis of the deposited data

How the results depend on the processing

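The sign of the log2 fold change of each of the 10 genes was the same under all alternatives run for it. For Wdfy4 without H89 tumor 3 the value was 0.0033 (SE 0.20), which shows no direction. Against 208 genes called over all genes, quantile normalization with limma called 80, DESeq2 1396, and fits without 1 tumor 0 to 12 (2401 to 3440 at an unadjusted p under 0.05). None of the 10 genes was called in the edgeR fit or without 1 tumor, and 1 by DESeq2, Fscn1 at -0.37. Of the 72 dendritic cell genes of the 5 lists, 2 were called, against 5 without the filter, 1 of the 45 with a mean of at least 5 CPM, 0 by quantile normalization with limma (28 at an unadjusted p under 0.05), 14 by DESeq2 and 0 in every fit without 1 tumor (21 to 33 at an unadjusted p under 0.05). The log2 ratio of means of Flt3 was 2.56, and 2.09 to 2.91 without 1 tumor. That of Cd209a was 1.73, and 1.15 to 2.28. With the pseudocount, 5 genes took opposite signs relative to Ptprc and relative to the mean of the 8 leukocyte genes. Relative to that mean they were Flt3 (0.42), Clec9a (0.15), Batf3 (0.25), Cd209a (0.29) and Irf4 (0.20). The signs of Flt3, Batf3 and Cd209a relative to Ptprc depended on the pseudocount. The edgeR log2 fold changes of Clec9a (0.98) and Irf4 (0.97) were near that of Ptprc, so their signs relative to Ptprc are not read as a direction. The cause of their change of sign was not tested.

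The labels number the tumors 1 to 3 in each group without saying that a number is shared. Deviations from the group means correlated between same-numbered tumors at 0.16, 0.06 and -0.03, and NaCl tumor 3 correlated best with H89 tumor 2 (0.35), so the numbers were not taken as pairs. With the replicate block, 0 genes were called over all genes (3750 at an unadjusted p under 0.05), 0 of the 10 genes and 0 of the 72 dendritic cell genes (30 at an unadjusted p under 0.05).

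Depth limits Flt3 and Cd209a most, with at most 10 counts in each NaCl tumor, and the counts of Clec9a, Batf3 and Irf4 were 93 or fewer. With 3 tumors per group, the smallest exact permutation p is 0.1.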
